A study of Mus musculus with 15 samples.

Results

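Cytochrome P450 genes, whose mouse symbols begin with Cyp followed by a family number, were followed through a path between mesenchymal stromal cells and hepatocytes in mouse. A gene was a member when such a symbol was the single symbol of a probe set on the array, and among several such probe sets the one brightest on average across the 15 arrays was used. This gave 73 members in 16 families among 18193 genes. Family 2 held 35 members, family 4 held 13 and family 3 held 5, while the other families held 1 to 3 each. Another 4 Cyp probe sets carried several symbols and were left out.

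P450 enzymes are haem proteins that insert an oxygen atom into their substrates with electrons from NADPH, which arrive through a reductase in the endoplasmic reticulum or through ferredoxin in mitochondria. Families 1 to 3 oxidise mainly drugs, toxins and some steroids, and family 4 oxidises fatty acids and eicosanoids. Other families make bile acids and steroid hormones, or control retinoic acid, vitamin D and cholesterol. The hepatocyte is the richest source of most of them, and several are lost when hepatocytes are kept in culture.

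The study measured 5 groups of 3 arrays each, and its title concerns DNA methyltransferases and the reversibility of hepatogenic differentiation. The dHD28 cells were HD28 cells put back into the medium of mesenchymal stromal cells (MSC). HD28 cells were MSC that received 20 ng/ml HGF, 10 ng/ml bFGF and nicotinamide in IMDM for 7 days, and after that 20 ng/ml oncostatin M, 1 µmol/L dexamethasone and an ITS premix of insulin, transferrin and selenium. MLC were primary hepatocytes moved to the MSC medium with TGF-β1 at 10, then 5, then 1 ng/ml until day 28. Hepatocytes were primary mouse cells in DMEM/F12, and MSC were grown in low glucose DMEM, both with 10% serum. The labels used here name no strain, sex, age or genetic change for any group. Nothing in them says that replicates came from different cultures or animals. The p-values therefore reflect the spread among these samples alone, which may be technical.

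All values are log2 levels from the authors' RMA table, and array medians lay between 4.84 and 4.95. A member was called higher or lower when it differed by 2 times or more with an adjusted p below 0.05, in a limma fit over all 15 arrays and all 18193 genes with Benjamini-Hochberg adjustment. The labelled cell types were checked with marker genes. All 12 hepatocyte markers were higher and 7 of 8 stromal markers were lower in Hepatocyte than in MSC. The Hepatocyte arrays also carried higher levels of 9 of 9 Kupffer cell, 8 of 8 endothelial and 4 of 6 stellate cell markers but of 0 of 4 bile duct markers, and their part in the P450 values was not tested. In bulk RNA, fewer cells of a type and less RNA per cell cannot be told apart. The hepatocyte markers summed, on the log2 scale, to 8.06 to 8.48 in dHD28, 8.22 to 8.30 in MLC and 8.24 to 8.41 in MSC. In Hepatocyte the sum was 16.91 to 16.97. The deposited values never reach 0 (the lowest is 1.32), so the low sums in the other groups cannot show residual hepatocyte RNA.

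One array stood apart. HD28 replicate 3 had a summed hepatocyte marker level of 15.89, against 8.001 to 8.28 in HD28 replicates 1 and 2, while its stromal marker sum of 15.78 lay beside their 15.83 to 15.93. Calls that rest on HD28 are therefore given with and without this array. In that array 12 of 12 hepatocyte, 5 of 9 Kupffer cell, 2 of 8 endothelial, 2 of 6 stellate cell and 1 of 4 bile duct markers were at least 1 log2 unit above both other HD28 arrays, and 0 of 8 stromal markers were. Its actin signal at the 3′ end minus that at the 5′ end was 0.94, against 0.29 and 0.23 in the other HD28 arrays and 0.67 to 1.24 in Hepatocyte. The part of other cells or of RNA quality in its P450 values was not tested.

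The promoters of some members named in the results are shown for reference, because each was called higher in Hepatocyte or in HD28 than in MSC. RefSeq promoter windows of build GRCm38.p6 were matched to 52 of 73 members by symbol. Each line gives the 250 bases before the start site, 5′ to 3′ on the gene's own strand. Capitals mark matches on either strand to GCGTG (the core of the aryl hydrocarbon receptor element), TGACCT or TGAACT (single arms of nuclear receptor elements), GTTAAT (an arm of the site of hepatocyte nuclear factor HNF1) and TATAAA (the TATA box). A match on the opposite strand appears as its complement, for example AGGTCA for TGACCT. Cyp2f2, Cyp4f13 and Cyp4v3 are the members that were higher in HD28 than in MSC, and Cyp3a11 and Cyp2e1 were higher in Hepatocyte than in MSC and high in HD28 replicate 3. The windows are chr7:27119705-27119954 (plus strand) for Cyp2f2, chr17:32947362-32947611 (minus) for Cyp4f13, chr8:45333164-45333413 (minus) for Cyp4v3, chr5:145879855-145880104 (minus) for Cyp3a11 and chr7:140763569-140763818 (plus) for Cyp2e1.
Cyp2f2: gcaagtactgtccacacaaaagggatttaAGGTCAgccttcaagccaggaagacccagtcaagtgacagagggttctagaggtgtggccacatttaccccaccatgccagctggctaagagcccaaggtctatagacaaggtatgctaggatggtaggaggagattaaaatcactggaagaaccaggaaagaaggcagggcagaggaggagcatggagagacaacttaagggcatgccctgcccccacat
Cyp4f13: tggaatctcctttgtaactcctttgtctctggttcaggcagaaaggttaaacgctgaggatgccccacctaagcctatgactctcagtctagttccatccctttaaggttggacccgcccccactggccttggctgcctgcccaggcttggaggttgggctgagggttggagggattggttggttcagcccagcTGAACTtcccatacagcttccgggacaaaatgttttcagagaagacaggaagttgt
Cyp4v3: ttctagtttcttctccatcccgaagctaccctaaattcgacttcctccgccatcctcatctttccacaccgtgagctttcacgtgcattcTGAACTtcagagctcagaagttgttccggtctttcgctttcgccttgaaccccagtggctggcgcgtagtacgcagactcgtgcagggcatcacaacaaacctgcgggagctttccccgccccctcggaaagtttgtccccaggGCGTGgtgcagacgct
Cyp3a11: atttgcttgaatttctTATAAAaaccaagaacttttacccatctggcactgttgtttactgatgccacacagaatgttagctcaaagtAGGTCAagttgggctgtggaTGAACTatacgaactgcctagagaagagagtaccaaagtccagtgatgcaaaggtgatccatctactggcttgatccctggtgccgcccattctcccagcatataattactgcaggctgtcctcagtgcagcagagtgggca
Cyp2e1: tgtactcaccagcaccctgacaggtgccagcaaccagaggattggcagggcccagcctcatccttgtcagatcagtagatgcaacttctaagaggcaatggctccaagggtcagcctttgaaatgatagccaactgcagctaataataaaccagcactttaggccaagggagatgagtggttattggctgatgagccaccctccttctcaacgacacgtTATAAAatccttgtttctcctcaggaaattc
In these windows TATAAA began at position -31 from the start site in Cyp2e1 and at -234 in Cyp3a11. Cyp3a11 also held TGACCT on the opposite strand at -162 and TGAACT at -142. Cyp2f2 held TGACCT on the opposite strand at -221, and Cyp4f13 held TGAACT at -56. Cyp4v3 held TGAACT at -160 and GCGTG at -16, and no 2 matches overlapped. Over windows of the same length, TATAAA was present in 36.5% of the 52 members and 14.3% of 27025 genes. TGACCT was present in 23.1% of members and 15.8% of genes, TGAACT in 15.4% and 13.4%, GCGTG in 25.0% and 30.9%, and GTTAAT in 5.8% and 7.5%. These are matches of letters only, and paralogs share ancestry, so their windows are not independent.

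Hepatocytes were set against MSC to show which members mark the 2 ends of the path. Of the 73 members, 48 were higher in Hepatocyte (65.8%, where 11.8% of all genes were higher) and 3 were lower (4.11%, where 18.3% of all genes were lower). The median change was 2.43 log2 units over the members and 0.04 over all genes. Among the 48, the change was at least 8 log2 units in 10 members, between 4 and 8 in 20 and under 4 in 18. In 47 of them all 3 Hepatocyte arrays lay above all 3 MSC arrays, and the exception was Cyp39a1. The 48 were chosen by their calls on these same arrays, so such separation largely follows from the choice. No share over all genes was counted for it. In MSC, 15 of the 48 had a mean below the lower quartile of the array, near the bottom of the scale. With arrays centred on housekeeping genes 51 members were higher and 3 lower; this moved the median of all genes to 0.47 and the all-gene calls to 3412 higher and 2277 lower, against 2149 and 3327 in the main fit.

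**Figure D1:**
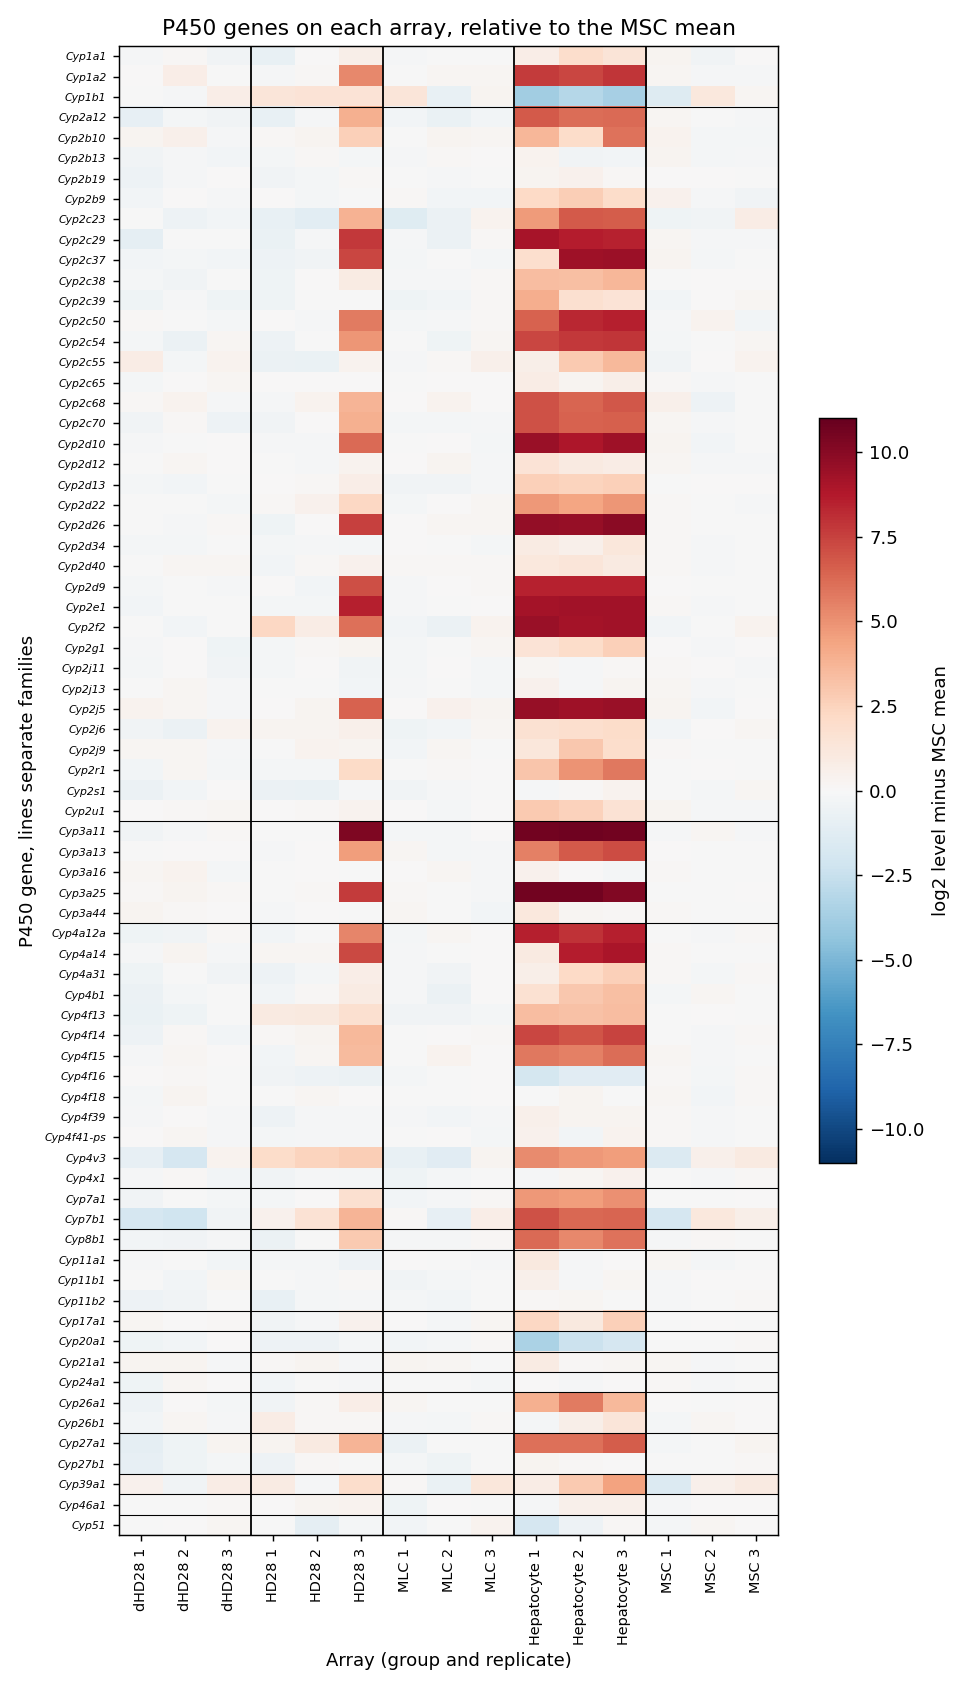
Heat map of the 73 members (rows, with lines between families) on each array (columns, from dHD28 to MSC), coloured by the log2 level minus the MSC mean of that gene. The 48 members higher in Hepatocyte form the red rows of the Hepatocyte columns, and among the HD28 columns many of the same rows are red in replicate 3.

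Of the families that oxidise mainly drugs and toxins, family 2 had 28 of 35 members higher, family 3 had 3 of 5 and family 1 had 2 of 3. Cyp3a11, a main drug oxidase of mouse liver, had 13.62, 13.68 and 13.61 in Hepatocyte replicates 1, 2 and 3, against 2.85, 3.23 and 2.90 in MSC. Its change was 10.64 (SE 1.92, adjusted p = 0.0004581). The Hepatocyte arrays were alike and far above every MSC array. Cyp3a11, Cyp3a25, Cyp2d26, Cyp2j5 and Cyp2d10 lay below the lower quartile of the array in MSC. So did Cyp1a2, Cyp4a12a, Cyp2r1, Cyp2c37 and Cyp4a14, which are named further on. The sizes of all these changes are therefore not exact and are not ranked. For Cyp3a11 the model's SE is much wider than the spread within Hepatocyte or MSC because it pools all groups. HD28 replicate 3 sets the SD of 5.98 among HD28 arrays of that gene.

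Cyp2e1, which oxidises ethanol and small solvents, had 13.68, 13.70 and 13.75 in Hepatocyte, against 4.64, 4.34 and 4.48 in MSC. The change was 9.23 (SE 1.62, adjusted p = 0.0003696), with no overlap. Cyp3a25 rose by 10.46, Cyp2d26 by 9.72, Cyp2j5, an epoxygenase of arachidonic acid, by 9.48, Cyp2d10 by 9.24 and Cyp2c29 by 8.72. Cyp2f2, which activates naphthalene, had 13.42, 13.06 and 13.14 in Hepatocyte, against 3.58, 3.81 and 4.30 in MSC, a change of 9.31 (SE 0.89, adjusted p = 2.017e-06). Within family 1, the caffeine oxidase Cyp1a2 rose by 7.65 (SE 1.00) and Cyp1a1, the best known target of the aryl hydrocarbon receptor, by 1.36 (SE 0.35). By subfamily, 10 of 11 Cyp2c, 7 of 8 Cyp2d, 3 of 5 Cyp2j, 3 of 5 Cyp3a and 2 of 4 Cyp2b members were higher.

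In family 4, which oxidises fatty acids and eicosanoids, 8 of 13 members were higher and 1 was lower. Cyp4a12a, a main source of the eicosanoid HETE in mouse, rose by 8.32 (SE 1.05, adjusted p = 2.138e-05), and Cyp4f14, a leukotriene hydroxylase, by 7.24 (SE 0.65, adjusted p = 1.191e-06). In both genes every Hepatocyte array lay above every MSC array.

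Genes that lie next to each other were not all called. In RefSeq order, 12 runs of adjacent protein-coding P450 genes held at least 2 measured members. In the Cyp2b run Cyp2b10 and Cyp2b9 rose by 3.90 and 2.32, while the changes of Cyp2b13 (-0.09) and Cyp2s1 (0.14) did not pass. In the Cyp3a run Cyp3a11 and Cyp3a25 rose, and the other measured members, Cyp3a16 and Cyp3a44, were dim in every group and cannot be set against them. Paralogs this close can share probe signal, and 3 members, Cyp4v3, Cyp2c23 and Cyp2c65, were read by a probe set with the suffix _s_at, whose probes can match several genes.

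Cyp7a1, Cyp8b1, Cyp27a1, Cyp7b1 and Cyp39a1, which act in bile acid synthesis, were higher in hepatocytes. Cyp46a1, which was listed with them as acting on the cholesterol side chain, was not called (0.34). Cyp7a1, the rate-limiting enzyme of the classic pathway, had 8.89, 8.68 and 9.12 in Hepatocyte, against 4.08, 4.04 and 4.15 in MSC. Its change was 4.81 (SE 0.38, adjusted p = 4.288e-07). The groups were far apart and their arrays were tight. Cyp8b1, which sets the share of cholic acid, rose by 5.83 (SE 0.64), and Cyp27a1, the mitochondrial sterol hydroxylase of the alternative pathway, by 6.29 (SE 0.65). Cyp7b1, the oxysterol hydroxylase of that pathway, rose by 6.57 (SE 0.86). Cyp39a1, another oxysterol hydroxylase, had 5.39, 7.46 and 8.99 in Hepatocyte, against 3.06, 5.10 and 5.52 in MSC, and these arrays overlapped. Its change of 2.72 (SE 0.89, adjusted p = 0.02275) lost its call when Hepatocyte replicate 2 or 3 or MSC replicate 1 was left out, with adjusted p between 0.0583 and 0.112, and in a fit of only the arrays compared (adjusted p = 0.06821).

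Vitamin and hormone enzymes were mixed. Cyp26a1, which breaks down retinoic acid, rose by 4.40 (SE 0.43), and Cyp2r1, a vitamin D hydroxylase of liver, rose by 4.60 (SE 0.65). Cyp26b1 (0.60), Cyp24a1 (-0.01) and Cyp27b1 (0.17), the last 2 being vitamin D enzymes best known from kidney, did not pass the test. Cyp26b1 passed without Hepatocyte replicate 1 (1.00, adjusted p = 0.008737) and with housekeeping centring (1.03, adjusted p = 0.01071). Cyp17a1, a steroid hydroxylase, rose by 1.98 (SE 0.31). The adrenal and gonadal enzymes Cyp11a1, Cyp11b1, Cyp11b2 and Cyp21a1 were called in none of the 7 comparisons, nor was Cyp46a1, a cholesterol hydroxylase of brain. By limma's unadjusted p, Cyp11a1 (-0.64) and Cyp11b2 (-0.45) differed in HD28 against Hepatocyte, and Cyp11b1 (-0.45) and Cyp46a1 (-0.50) in MLC against Hepatocyte. Cyp51, a demethylase of cholesterol synthesis found in nearly all cells, had 8.10, 9.38 and 10.11 in Hepatocyte, against 9.76, 10.16 and 10.00 in MSC, and did not pass (-0.78, adjusted p = 0.1334). Without Hepatocyte replicate 3 it was called lower (-1.24, adjusted p = 0.01471). A second Cyp51 probe set had means further apart, 7.74 in Hepatocyte and 9.29 in MSC, while another was nearly flat at 5.77 and 5.90.

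Only 3 of the 73 members were lower in hepatocytes than in MSC. Cyp1b1, an oxidase of oestrogens and polycyclic hydrocarbons known from tissues outside the liver, had 4.14, 4.89 and 4.34 in Hepatocyte, against 6.59, 9.19 and 8.22 in MSC. The change was -3.54 (SE 0.58, adjusted p = 0.0002145), and the MSC arrays varied more than the Hepatocyte arrays without touching them. A second Cyp1b1 probe set moved the same way, with 2.74 in Hepatocyte and 6.18 in MSC as means, while another was flat at 3.80 and 3.93. Cyp20a1, an orphan P450 with no settled substrate, had 6.95, 8.04 and 8.56 in Hepatocyte, against 10.34, 10.35 and 10.54 in MSC. Its change was -2.56 (SE 0.31, adjusted p = 1.478e-05). Cyp4f16 changed by -1.46 (SE 0.19, adjusted p = 2.739e-05), with 5.25, 5.95 and 5.90 in Hepatocyte, against 7.32, 6.90 and 7.25 in MSC.

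The remaining 21 members were called in none of the 7 comparisons. Their group means spanned a median of 0.45 log2 units, and 8 of them lay below the lower quartile of the array in every group. Those 8 were Cyp2b19, Cyp2c65, Cyp2j13, Cyp3a16, Cyp3a44, Cyp4f41-ps, Cyp4x1 and Cyp27b1. A probe set this dim cannot show whether a gene is off or poorly measured.

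Hepatocyte replicates differed in some members more than in others. Of the 48 members higher in Hepatocyte, 29 spanned under 1 log2 unit over the 3 arrays and 11 spanned at least 2. Cyp4a14, a fatty acid hydroxylase controlled by PPARα, had 4.34, 12.06 and 12.38, and Cyp2c37, an arachidonic acid hydroxylase, had 4.81, 12.25 and 12.30. Replicate 1 read far below replicates 2 and 3 in both, whose MSC means were 3.38 and 2.92. The call for Cyp4a14 in Hepatocyte against MSC (6.21, SE 1.96, adjusted p = 0.01942) was lost without Hepatocyte replicate 2 or 3 (adjusted p 0.0828 and 0.0896).

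Cyp2b10, which is induced through the receptor CAR, had 9.01, 7.36 and 11.31 in the 3 Hepatocyte replicates. Replicate 1 was the lowest in 8 of the 11 members with a wide span, but over all 48 members it was the lowest in 16, replicate 2 in 21 and replicate 3 in 11. Replicate 1 had the lowest sums of Kupffer, endothelial and stellate cell markers, though not of bile duct markers (7.496, against 7.35 in replicate 3), with a Kupffer cell sum of 10.03, where the highest Hepatocyte sum was 11.83, and a stellate cell sum of 8.86, where the highest was 11.10. It also belonged to the 6 arrays with high signal of the poly-A spike-in controls (7.35 to 8.50, against 4.70 to 5.49 in the others). The part of either in these values was not tested. Cyp2c39 ran the other way, with 7.89 in replicate 1 and 5.62 and 5.37 in the others.

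**Figure D2:**
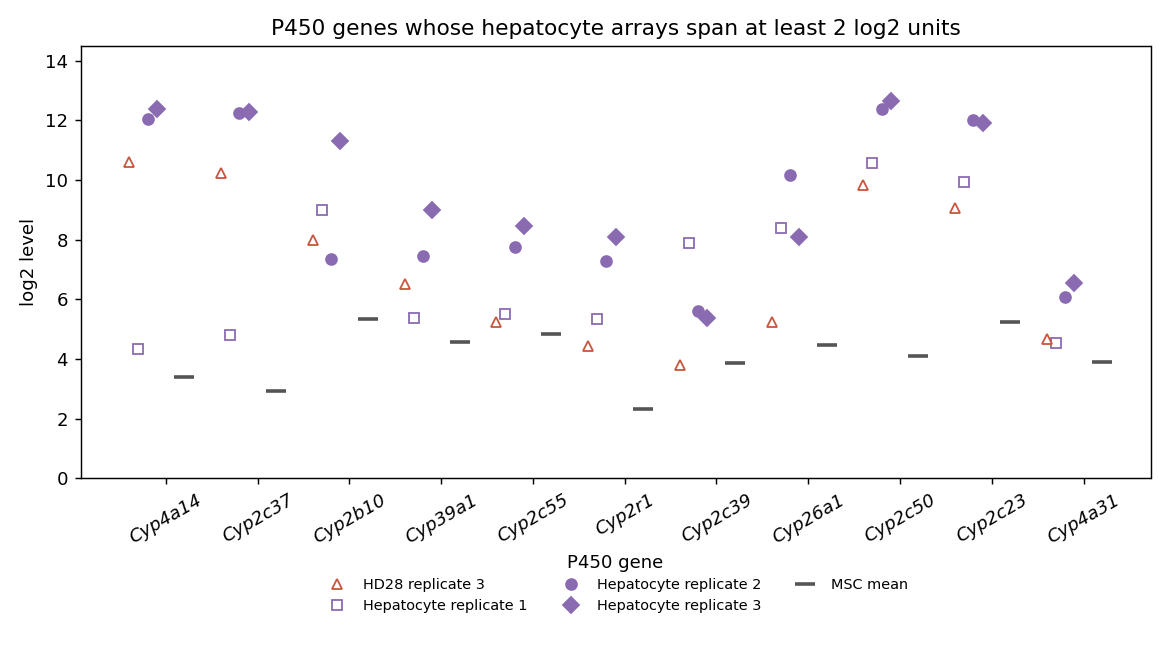
Log2 level of the 11 members whose 3 Hepatocyte arrays span at least 2 log2 units, with HD28 replicate 3 and the MSC mean for scale. Cyp4a14 and Cyp2c37 sit at 4.34 and 4.81 in Hepatocyte replicate 1 and above 12 in replicates 2 and 3.

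The comparison of HD28 with MSC asks which P450 genes differed between cells taken through the differentiation protocol and MSC. The part of any single step or medium was not tested. Few did: 3 of 73 members were higher (4.11%, where 3.24% of all genes were higher) and 0 were lower (3.52% of all genes), so the count of members is close to the background. By unadjusted p under 0.05, 9 members differed in the limma fit. The share of all genes at this unadjusted limit was not counted, here or in later comparisons. Such counts therefore do not show more change in P450 genes than in others. By limma's adjusted p alone, with no fold limit, 816 of 18193 genes were higher and 1132 lower in HD28 than in MSC. Without HD28 replicate 3, 2 members were higher (2.70% of all genes) and 0 were lower (3.06% of all genes), and 5 differed by unadjusted p. The median change was 0.26 over members and -0.08 over all genes with all arrays, and -0.09 for both without replicate 3.

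Cyp4f13, of the subfamily that oxidises leukotrienes and long fatty acids, had 6.25, 6.31 and 6.97 in HD28, against 5.20, 5.26 and 5.23 in MSC. It rose by 1.28 (SE 0.20, adjusted p = 0.001439) and, without replicate 3, by 1.05 (SE 0.19, adjusted p = 0.004506). Every HD28 array lay above every MSC array, and the call was kept whichever array was left out. Hepatocyte arrays had 8.60, 8.46 and 8.64, so HD28 lay between MSC and Hepatocyte.

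Cyp2f2 had 6.21, 4.74 and 9.92 in HD28, against 3.58, 3.81 and 4.30 in MSC. It rose by 3.06 (SE 0.89, adjusted p = 0.04326) and, without replicate 3, by 1.58 (SE 0.39, adjusted p = 0.02577). All 3 HD28 arrays lay above MSC, but they spread widely. The call rested on a narrow margin: it was lost in 13 of 15 fits that left out 1 array, with adjusted p between 0.0531 and 0.132, and in a fit of only the arrays compared (adjusted p = 0.2087).

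Cyp4v3, a fatty acid hydroxylase whose human counterpart is mutated in a retinal dystrophy, had 8.80, 9.30 and 9.57 in HD28, against 5.28, 7.39 and 7.80 in MSC. It rose by 2.40 (SE 0.65, adjusted p = 0.03133). The HD28 arrays were close together and above all MSC arrays, of which replicate 1, an array of the high spike-in class, was the lowest. Without HD28 replicate 3 the change was 2.23 (SE 0.74, adjusted p = 0.09242), which did not pass. The call was also lost without HD28 replicate 1 or 2 or MSC replicate 1, with a change of 1.63 in the last case, and in a fit of only the arrays compared (adjusted p = 0.08346). A second probe set had means of 8.02 in HD28 and 5.44 in MSC.

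Other members moved less clearly. Cyp1b1 had 9.30, 9.50 and 9.48 in HD28, against 6.59, 9.19 and 8.22 in MSC, a difference of 1.43 (SE 0.58, adjusted p = 0.1495). Cyp27a1 had 5.81, 6.50 and 9.29 in HD28, against 5.32, 5.48 and 5.81 in MSC (1.67, SE 0.65, adjusted p = 0.1351). Cyp7b1 had 6.04, 7.11 and 9.26 in HD28, against 3.70, 6.69 and 6.19 in MSC (1.95, SE 0.86, adjusted p = 0.1836). None of these passed, and in Cyp27a1 and Cyp7b1 the highest value was that of replicate 3. Without replicate 3 the differences were 1.40 in Cyp1b1 (adjusted p = 0.2568), 0.62 in Cyp27a1 (adjusted p = 0.3471) and 1.05 in Cyp7b1 (adjusted p = 0.5084). Cyp1b1 passed without MSC replicate 2 (2.02, adjusted p = 0.04597) and Cyp27a1 without HD28 replicate 1 (2.36, adjusted p = 0.03494).

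**Figure D3:**
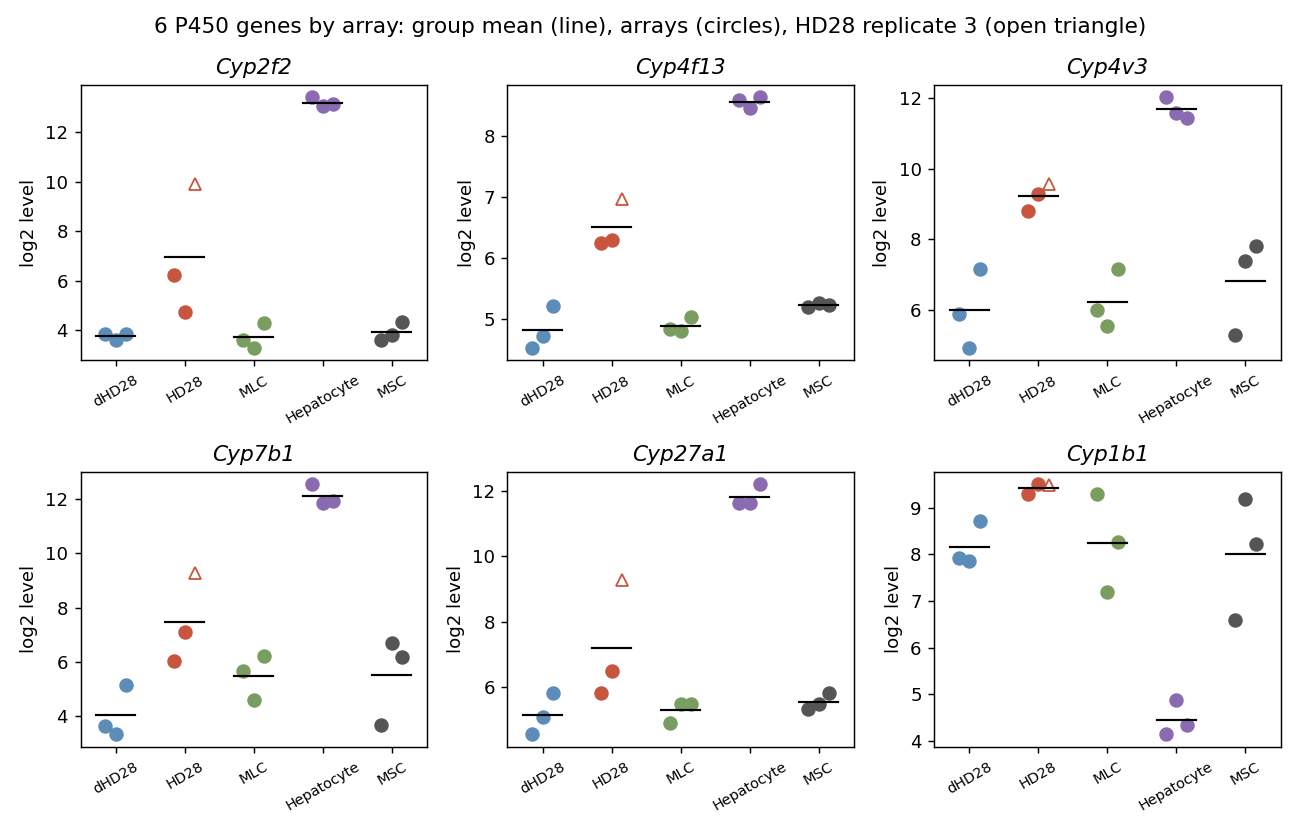
Log2 level on each array of Cyp2f2, Cyp4f13, Cyp4v3, Cyp7b1, Cyp27a1 and Cyp1b1, by group from dHD28 to MSC, with group means as lines and HD28 replicate 3 as an open triangle; each panel has its own axis. HD28 arrays of Cyp4f13 and Cyp4v3 lie together between MSC and Hepatocyte, while those of Cyp2f2, Cyp7b1 and Cyp27a1 are spread by replicate 3.

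HD28 replicate 3 carried high levels of many hepatocyte members that its fellow arrays did not. Of the 48 members higher in Hepatocyte than in MSC, 31 were at least 1 log2 unit above both other HD28 arrays in replicate 3, and 29 were that far above all 11 other arrays that are not Hepatocyte. Of the 25 other members, 0 were. These counts describe 1 array and carry no test. They were not made over all genes, and all 12 hepatocyte markers were also at least 1 log2 unit above both other HD28 arrays. The counts therefore do not set P450 genes apart from other genes high in hepatocytes. Cyp3a11 had 13.29 there, against 2.92 and 2.95 in HD28 replicates 1 and 2, and Cyp2e1 had 13.02, against 4.26 and 4.30. Cyp2c29 had 12.00, against 3.50 and 4.11, and Cyp2d9, a steroid hydroxylase, had 10.86, against 3.81 and 3.51.

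Relative to the Hepatocyte mean, the 48 members in replicate 3 lay at a median of -2.15 log2 units, with a range of -3.67 to 1.01. Cyp4a14 (10.61) and Cyp2c37 (10.24), both low in Hepatocyte replicate 1, were high in it. Members with smaller hepatocyte changes were less visible: Cyp7a1 had 5.89, against 3.88 and 4.13 in the other HD28 arrays. Without replicate 3, HD28 minus MSC was -0.06 in Cyp3a11 (adjusted p = 0.9045) and -0.20 in Cyp2e1 (adjusted p = 0.4891), and neither passed the limma test.

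**Figure D4:**
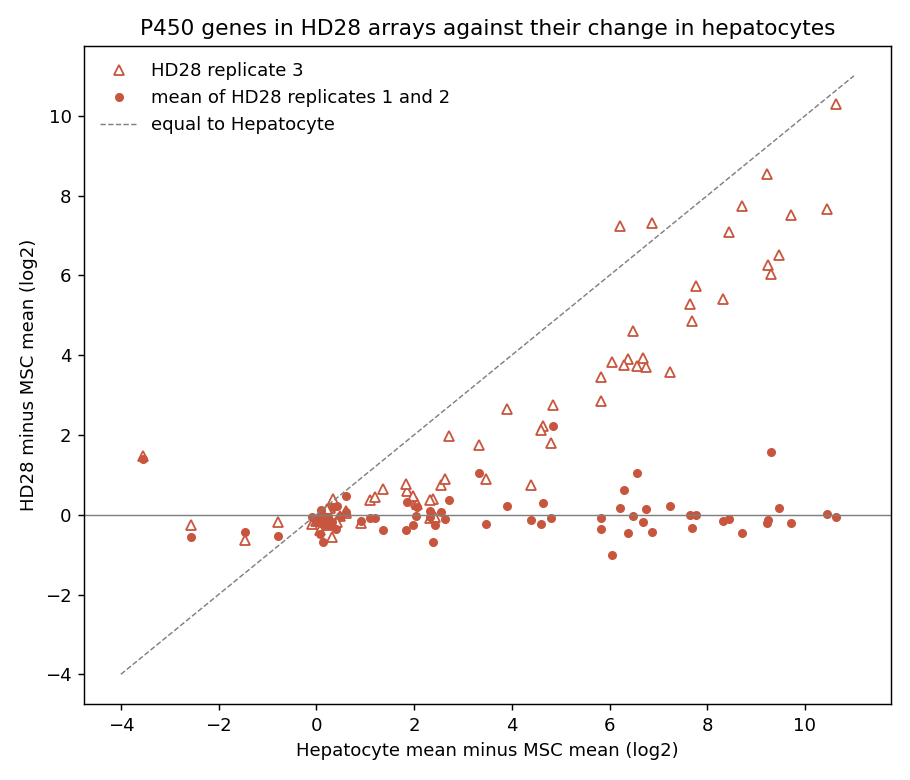
Each member's HD28 level minus its MSC mean (vertical, log2) against its Hepatocyte mean minus MSC mean (horizontal, log2), as open triangles for HD28 replicate 3 and dots for the mean of replicates 1 and 2; both axes share the MSC mean. Triangles climb as the hepatocyte change grows and lie mostly below the dashed line of equality. Among the 48 members higher in Hepatocyte, Cyp4a14 and Cyp2c37 lie above the line by 1.01 and 0.45. Some other members lie above it too, with Cyp1b1 furthest at 5.02 and Cyp20a1 among them. Most dots stay near 0, with Cyp4v3, Cyp2f2, Cyp4f13 and Cyp7b1 among those above 1.

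Against hepatocytes, HD28 cells had 46 of 73 members lower (11.2% of all genes were lower) and 2 higher (15.3% of all genes were higher). Without replicate 3, 48 were lower (11.7% of all genes) and 3 were higher (15.5% of all genes). Of the 48 members higher in Hepatocyte than in MSC, 45 were lower in HD28 than in Hepatocyte, and both comparisons share the Hepatocyte arrays. Cyp4a14, Cyp2c37 and Cyp39a1 were the exceptions. Without replicate 3, Cyp4a14 (-6.04, adjusted p = 0.01215) and Cyp2c37 (-7.31, adjusted p = 0.00271) were called lower too. Cyp39a1 (-1.82 with all arrays) was called with the replicate number (adjusted p = 0.03596) or the spike-in class (0.004751) as a block, with housekeeping centring (0.04857) and without Hepatocyte replicate 1 (0.0196), which also called Cyp4a14 (0.005906). Cyp3a11 was lower by -7.25 (SE 1.92, adjusted p = 0.007756), and by -10.70 (SE 0.18) without replicate 3 in the fit. With all 3 HD28 arrays its call was lost in a fit of only the arrays compared (adjusted p = 0.06686). Cyp7a1 was lower by -4.26 (SE 0.38) and by -4.89 without replicate 3, and Cyp8b1 by -5.12 (SE 0.64) and by -6.20 without it. The higher members were Cyp1b1, by 4.97 (SE 0.58, adjusted p = 1.557e-05), and Cyp20a1, by 2.10 (SE 0.31, adjusted p = 0.0001044), joined by Cyp4f16 (1.02, adjusted p = 0.002145) when replicate 3 was left out. Cyp1b1 was then higher by 4.94 and Cyp20a1 by 1.99.

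The return of HD28 cells to MSC medium was tested in dHD28 against HD28. Here 4 members were lower (5.48%, where 4.19% of all genes were lower) and 0 were higher (4.63% of all genes were higher), and by unadjusted p 11 members differed in the limma fit. Without replicate 3, 3 were lower (3.44% of all genes) and 0 were higher (3.91% of all genes), with 6 by unadjusted p. The share of all genes at the unadjusted limit was not counted. The comparison shares the HD28 arrays with that of HD28 against MSC, so a high HD28 array enters both with opposite sign.

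Cyp4f13 had 4.53, 4.73 and 5.21 in dHD28, against 6.25, 6.31 and 6.97 in HD28. It fell by 1.68 (SE 0.20, adjusted p = 0.0001801), and by 1.45 without replicate 3 (adjusted p = 0.0004585). Every dHD28 array lay below every HD28 array. Cyp4v3 had 5.90, 4.93 and 7.17 in dHD28, against 8.80, 9.30 and 9.57 in HD28, and fell by 3.22 (SE 0.65, adjusted p = 0.005316). This call was kept without replicate 3 (adjusted p = 0.02075), and the groups did not overlap. Cyp2f2 had 3.85, 3.61 and 3.83 in dHD28, against 6.21, 4.74 and 9.92 in HD28, and fell by 3.20 (SE 0.89, adjusted p = 0.02961). Without replicate 3 it fell by 1.72 (adjusted p = 0.01415), but the call was lost without any 1 of the 3 dHD28 arrays (adjusted p 0.0561 to 0.0880) and in a fit of only the arrays compared (adjusted p = 0.1469).

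Cyp7b1 had 3.67, 3.34 and 5.15 in dHD28, against 6.04, 7.11 and 9.26 in HD28. It fell by 3.42 (SE 0.86, adjusted p = 0.0177), with no overlap. A second probe set had means of 3.96 in dHD28 and 7.05 in HD28, and another was flat near the bottom of the scale (2.46 in both). The call was lost without HD28 replicate 3 (adjusted p = 0.06706) and without dHD28 replicate 1 or 2 (0.0685 and 0.0738). Cyp27a1 had 4.55, 5.08 and 5.81 in dHD28, against 5.81, 6.50 and 9.29 in HD28, a difference of -2.05 (SE 0.65, adjusted p = 0.05456). With the replicate number as a block this difference passed (adjusted p = 0.01707), which made 5 members lower. It also passed with housekeeping centring (adjusted p = 0.03587), without dim genes (0.04422), when blocked by spike-in class (0.04274) and without HD28 replicate 1 (0.01373) or dHD28 replicate 3 (0.04757). Without HD28 replicate 3 the difference was -1.01 (adjusted p = 0.09635). A second Cyp27a1 probe set was flat near the bottom of the scale, with 1.99 in dHD28 and 1.90 in HD28. It read 2.24 even in Hepatocyte, where the probe set used read 11.82, so it cannot speak to the change.

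Cells of the dHD28 group were not distinguished from MSC in any member. The limma fit called 0 members higher (0% of all genes) and 0 lower (0% of all genes), and by limma's unadjusted p 1 member differed. This was Cyp27b1, by -0.54, which lay below the lower quartile of the array in every group. Changes ran from -1.47 in Cyp7b1 to 0.35 in Cyp2c55, and 72 of 73 members lay within 1 log2 unit. A missed threshold does not show equal levels: Cyp7b1 had an SE of 0.86, and its arrays read 3.67, 3.34 and 5.15 in dHD28, against 3.70, 6.69 and 6.19 in MSC. Cyp4f13 differed by -0.41 (SE 0.20) and Cyp2f2 by -0.14 (SE 0.89).

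Levels of most P450 genes were lower after hepatocytes were turned to MLC. In MLC against Hepatocyte, 49 members were lower (12.0% of all genes were lower) and 3 were higher (18.4% of all genes were higher), with a median of -2.51 over members and -0.06 over all genes. All 48 members that were higher in Hepatocyte than in MSC were among the lower ones, with Cyp2d34 in addition (-1.01), and both comparisons share the Hepatocyte arrays. The calls for Cyp4a14 and Cyp39a1 were lost without Hepatocyte replicate 2 or 3. Adjusted p was then 0.0769 and 0.0836 for Cyp4a14 and 0.0766 and 0.152 for Cyp39a1. The Cyp39a1 call was also lost without MLC replicate 1 (adjusted p = 0.07879) or 2 (0.1217) and in a fit of only the arrays compared (0.05464). Cyp3a11 had 2.76, 2.78 and 3.04 in MLC, against 13.62, 13.68 and 13.61 in Hepatocyte (-10.78, SE 1.92, adjusted p = 0.0004051). Cyp7a1 had 3.78, 3.95 and 4.18 in MLC, against 8.89, 8.68 and 9.12 in Hepatocyte (-4.92, SE 0.38). No MLC array reached a Hepatocyte array in either gene.

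The 3 higher members were again Cyp1b1, by 3.79 (SE 0.58), Cyp20a1, by 2.44 (SE 0.31), and Cyp4f16, by 1.40 (SE 0.19), whose difference of 0.92 under housekeeping centring was below the fold limit. Cyp1b1 had 9.29, 7.19 and 8.26 in MLC, against 4.14, 4.89 and 4.34 in Hepatocyte. Against MSC, the limma fit called 0 members higher (0% of all genes) and 0 lower (0% of all genes) in MLC, and 0 differed by unadjusted p. Changes ran from -0.59 in Cyp4v3 to 0.27 in Cyp2j5, and all 73 lay within 1 log2 unit. Cyp7b1 had 5.66, 4.59 and 6.24 in MLC, against 3.70, 6.69 and 6.19 in MSC, and Cyp4v3 had 5.99, 5.54 and 7.16, against 5.28, 7.39 and 7.80. In both genes the arrays of the 2 groups overlapped.

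Genes that work with P450 enzymes were counted next. Of 14 measured partner genes, 8 were higher (11.8% of all genes were higher) and 1 was lower (18.3% of all genes) in Hepatocyte than in MSC, and the median change was 1.42 log2 units, against 0.04 over all genes. Ephx2, an epoxide hydrolase that acts on P450 products, rose by 7.995 (SE 1.03), Alas1, the first enzyme of haem synthesis, by 4.02 (SE 0.33), and Fdx1, the mitochondrial ferredoxin, by 2.99 (SE 0.23). Hmox1, which breaks haem down, fell by 2.85 (SE 0.50). Of 2 P450 proteins under other symbols, the prostacyclin synthase Ptgis had 4.70, 5.13 and 5.86 in Hepatocyte, against 9.28, 9.57 and 9.12 in MSC (-4.10, adjusted p = 1.061e-06), and Tbxas1 did not pass.

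In HD28 against MSC, 3 of 14 partners were higher (3.24% of all genes were higher) and 0 lower (3.52% of all genes). By limma's unadjusted p 7 differed, a limit at which the share of all genes was not counted. Fdx1 had 9.41, 10.24 and 10.13 in HD28, against 8.32, 8.25 and 8.56 in MSC, and rose by 1.55 (SE 0.23, adjusted p = 0.0007932). Ephx1, an epoxide hydrolase of the endoplasmic reticulum, had 12.19, 11.53 and 11.77 in HD28, against 9.89, 10.29 and 10.23 in MSC, and rose by 1.69 (SE 0.24, adjusted p = 0.0007201). Neither pair of groups overlapped, and both calls were kept without replicate 3. Cyb5a, an electron donor, rose by 1.10 with all arrays and differed by 0.93 without replicate 3, under the fold limit. On return, Cyb5a fell by 1.37, Fdx1 by 1.54 and Ephx1 by 1.80 in dHD28 against HD28, and without replicate 3 by 1.195, 1.44 and 1.83.

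Receptors and factors that control P450 genes were counted the same way. Of 21 measured, 12 were higher (11.8% of all genes were higher) and 3 lower (18.3% of all genes) in Hepatocyte than in MSC, with Hnf4a (5.70), Ppara (5.25), Nr1h4, the bile acid receptor FXR (4.79), and Ahr (4.09) among the higher. Nr1i2 and Nr1i3, the drug sensing receptors PXR and CAR, rose by 3.83 and 3.80. Vdr, Rarg and Srebf2 had lower means in Hepatocyte (4.56, 7.09 and 7.24) than in MSC (7.57, 9.21 and 8.88). In HD28 against MSC 1 of 21 was higher, a share of 4.76% that is near the 3.24% of all genes. This was Nr1h3, the oxysterol receptor LXRα, which had 6.52, 6.57 and 6.29 in HD28, against 5.13, 4.63 and 4.93 in MSC. It rose by 1.57 (SE 0.20, adjusted p = 0.0002987) and by 1.65 without replicate 3, and fell by 1.62 in dHD28 against HD28 (by 1.70 without replicate 3). Its arrays did not overlap between HD28 and either group. In dHD28 against HD28, 2 of 21 were lower, Nr1h3 and Nr1h4, where 4.19% of all genes were lower. A count of 2 is too small to be set above that share. Receptors lower in HD28 than in MSC, or higher in dHD28 than in HD28, are not counted here. Rarb and Rarg had lower means in HD28 (4.03 and 8.34) than in MSC (5.61 and 9.21) or dHD28 (5.36 and 9.16). Nr1h4 did not pass without replicate 3 (-0.66, adjusted p = 0.0819). The drug sensing receptors did not pass in HD28 against MSC (adjusted p = 0.5458 for Nr1i2 and 0.6523 for Nr1i3, and 0.9735 and 0.8488 without replicate 3).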

How the data were processed

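Expression was measured in 15 mouse samples, 5 groups of 3, on Affymetrix arrays from 5 µg of total RNA per the labels. The deposited table holds log2 values for 45101 probe sets, made by the authors with RMA per the submitters' processing notes, with no version given. RMA corrects background, equalises the distributions of arrays and summarises probes, so a shift shared by most genes is removed. No source names the log base; values between 1.32 and 14.15 were read as base 2. There is no sequencing depth in such data, so precision depends on how many arrays each group has.

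Of the probe sets, 64 were controls, 34945 carried 1 symbol in the array annotation, 932 several and 9160 none; those without exactly 1 symbol were left out. Of the 98 Cyp probe sets with 1 symbol, the one with the highest mean stood for each gene, and 19 of 73 members had more than 1. All 73 symbols matched RefSeq, assembly GRCm38.p6. Gene coordinates are left out because the array table names no build; promoter windows carry RefSeq's own.

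Group means were fitted to all arrays and 18193 genes with limma 3.58.1 in R 4.3.3 (lmFit, eBayes, 10 residual degrees of freedom), p was two-sided and adjusted by Benjamini-Hochberg over all genes in each of 7 comparisons. SE values come from this model and pool the spread of all groups. The fit was tested on simulated data. The members, gene lists and tests were chosen with earlier results of these data known. Any member may be named with its levels. Statistics are given for the 8 largest called rises and falls per comparison, for a list of members with known roles, for all called members where 5 or fewer were called, and for up to 4 called genes of each other list, with receptors named where they bear on a P450 role. Nr1h3, Ephx1 and Cyb5a fall under this rule. Cyp4a12a, Cyp4f14, Cyp2c37, Cyp2c39, Cyp2b9 and others outside the list of roles were picked as examples after their values were seen.

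The replicate number was checked as a pairing: deviations from group means correlated at 0.32, 0.28 and 0.12 in the 3 pairs of dHD28 and HD28, and at least 1 pair was under 0.1 in every other comparison. Pairs of dHD28 and HD28 also share the class of poly-A spike-in signal, so the number and the class cannot be told apart there. The 12 kinds of alternative were other treatments of probe sets, removal of dim ones or of those ending _x_at, _s_at or _a_at, quantile normalization again, housekeeping centring, trend and robust options, fits of only the arrays compared, no fold limit, the replicate block, the spike-in class block with and without HD28 replicate 3, and each array left out.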

Additional observations from a re-analysis of the deposited data

How the results depend on the processing

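Counts of P450 genes called kept within 1.5 times their main value under the alternatives, with these exceptions. HD28 against MSC gave 1 higher member, in place of 3, when the fit held only the arrays compared. Leaving out each array in turn gave 1 to 3 higher members there, with the lowest count without MSC replicate 1, and 2 to 6 lower members in dHD28 against HD28, where the main count was 4. The lowest of these came without dHD28 replicate 1 or 2. The cause was not tested. With the replicate number as a block, dHD28 against HD28 gave 5 lower members, HD28 against Hepatocyte 47 in place of 46, and the block left the other counts as they were. The other leave-one-out ranges were 45 to 48 higher and 3 to 4 lower in Hepatocyte against MSC, 2 to 3 higher and 43 to 48 lower in HD28 against Hepatocyte, and 3 to 4 higher and 45 to 49 lower in MLC against Hepatocyte; the main counts were 48, 3, 2, 46, 3 and 49. Among named members 0 directions turned where a call had been made, while 44 calls were lost and 26 gained over 6217 refits. Housekeeping centring shifted all genes: calls over all genes became 729 higher and 488 lower in HD28 against MSC (590 and 641 in the main fit), 2118 and 2897 in HD28 against Hepatocyte (2786 and 2039), 565 and 1079 in dHD28 against HD28 (843 and 762) and 2200 and 3902 in MLC against Hepatocyte (3353 and 2188). Medians of all genes were then 0.05, -0.41, -0.14 and -0.54. The 3 arrays a group and the pooled spread limit what small changes can be called.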
